A study of Mus musculus with 9 samples.

Results

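Zc3h7a, C230081A13Rik and the microRNA genes mmu-mir-689-2 and mmu-mir-2134-4 mark a locus on chromosome 16 and one on chromosome 9 whose UBTF peaks in mouse pre-B cells had the best mean ranks outside the ribosomal RNA genes (rDNA). The members were chosen by the rank of their best peak in the same 6 peak lists that are described here, so the ranks and scores are given as a description with no test. The 4 names match 5 of the 37310 annotated genes, because the name mmu-mir-2134-4 belongs both to a gene inside C230081A13Rik on chromosome 9 and to a gene on chromosome 13. Peaks were counted as belonging to a member where they overlapped its gene body or the 1 kb around it. These were 18 of 116180 and 19 of 184609 peaks (wild type libraries 1 and 2), 11 of 78113 and 43 of 575674 (premalignant), and 26 of 279068 and 46 of 563265 (malignant).

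Peak lists from UBTF chromatin immunoprecipitation followed by sequencing (ChIP-seq) were used, with 2 libraries for each of 3 stages. Wild type C57BL/6 mice of 4 to 6 weeks, premalignant Eµ-Myc mice of 4 to 6 weeks and malignant Eµ-Myc mice of 10 to 20 weeks gave the cells. The wild type and premalignant mice were female, and the malignant mice were of both sexes. Eµ-Myc is a transgene in which the immunoglobulin heavy chain enhancer drives the MYC oncogene in B cells, here carried as a heterozygote on the C57BL/6 background. The cells were sorted from bone marrow, and the study gives individual animals as the replicates of these sorted cells. The labels give 1 gate for all stages (high B220, low IgM, low IgD), whereas the methods give it for the progenitor and precursor B cells of wild type and premalignant mice and describe the malignant cells as transformed pre-B cells positive for B220 and negative for IgM and IgD. Age differed between the malignant mice and both other groups, and stage, age and, where the gates differed, the gate cannot be told apart. The sex of the malignant mice is not known per library, so sex may differ with stage as well.

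UBTF is a DNA-bending factor of the high mobility group family that coats active rDNA repeats and keeps them open for RNA polymerase I, which makes the precursor of the 18S, 5.8S and 28S ribosomal RNAs. MicroRNAs are short RNAs cut from hairpin precursors that lower the output of messenger RNAs with matching sites. Some sequences that were annotated as microRNA genes are pieces of abundant structured RNAs, and the sequence of mir-689 and mir-2134 is known from the 3′ part of 28S rRNA. Zc3h7a codes for a zinc finger protein of the CCCH type, a class that binds RNA. C230081A13Rik, for which RefSeq gives the name Peak1, codes for a pseudopodium-enriched atypical kinase.

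The sequence of the microRNA gene is shown first because it is what both loci share. It was read from the mm9 (NCBIM37) genome, and its 57 bases are the same for mmu-mir-689-2 at chr16:11144218-11144274 (plus strand), mmu-mir-2134-4 at chr9:56071522-56071578 (minus strand) and mmu-mir-2134-2 at chr4:138894219-138894275 (plus strand). Capitals in the other lines mark bases that differ from it. Those copies are mmu-mir-2134-4 at chr13:9833715-9833771 (minus strand), mmu-mir-2134-1 at chr1:169270500-169270555 (minus strand) and an unannotated copy at chr9:105721634-105721674 (minus strand).
mmu-mir-689-2, mmu-mir-2134-4 on chromosome 9 and mmu-mir-2134-2: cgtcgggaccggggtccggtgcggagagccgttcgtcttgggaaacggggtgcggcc
mmu-mir-2134-4 on chromosome 13: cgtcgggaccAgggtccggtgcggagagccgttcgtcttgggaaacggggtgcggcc
mmu-mir-2134-1: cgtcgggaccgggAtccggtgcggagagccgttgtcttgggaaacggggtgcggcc
Unannotated copy in Col6a6: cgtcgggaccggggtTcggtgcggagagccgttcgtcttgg
Positions are counted from 1 at the 5′ end of the first sequence, with its base first. The chromosome 13 gene has the change G11A, mmu-mir-2134-1 has G14A and 1 missing base, and the copy in Col6a6 aligned over 41 bases with C16T. G and C make up 73.7% of the 57 bases.

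The surroundings of both members show how far the likeness goes. The next lines give 100 bases on each side on the strand of the microRNA gene, chr16:11144118-11144374 (plus) and chr9:56071422-56071678 (minus), with the 57 bases in capitals.
mmu-mir-689-2: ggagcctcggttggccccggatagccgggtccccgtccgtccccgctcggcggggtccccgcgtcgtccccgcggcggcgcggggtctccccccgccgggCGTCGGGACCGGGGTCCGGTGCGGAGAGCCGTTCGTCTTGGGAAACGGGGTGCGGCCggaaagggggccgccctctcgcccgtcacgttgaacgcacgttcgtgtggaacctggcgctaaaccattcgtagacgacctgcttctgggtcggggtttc
mmu-mir-2134-4: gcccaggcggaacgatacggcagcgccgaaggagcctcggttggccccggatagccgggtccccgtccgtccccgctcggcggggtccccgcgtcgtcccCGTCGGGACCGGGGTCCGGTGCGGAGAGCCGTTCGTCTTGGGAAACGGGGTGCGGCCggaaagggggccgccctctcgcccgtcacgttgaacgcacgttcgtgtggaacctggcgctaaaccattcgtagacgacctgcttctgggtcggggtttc
The shared block ran over 409 bases on chromosome 16 (chr16:11144000-11144408) and 379 bases on chromosome 9 (chr9:56071388-56071766). Of its aligned bases 378 were identical and 1 differed. The remaining 30 bases, at chr16:11144188-11144217, stood directly before the microRNA gene on chromosome 16 and were absent from chromosome 9. No block of either locus aligned to any of 335 annotated rRNA genes and rRNA-like entries by BLASTN. A 28S rRNA sequence was not used here, so this search cannot decide on a match to 28S. That match is background and not a measurement.

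Both microRNA genes lie in introns. mmu-mir-689-2 (ENSMUSG00000076258.1) stands in an intron of 3272 bp of Zc3h7a (ENSMUSG00000037965.8, chr16:11136685-11176486, minus strand), on the opposite strand to its host, 32240 bp from the host's start. Its nearest exon is 998 bp away. mmu-mir-2134-4 (ENSMUSG00000076281.1) stands in an intron of 19490 bp of C230081A13Rik (ENSMUSG00000074305.3, chr9:56048938-56265857, minus strand), on the strand of its host, 194307 bp from the host's start and 3330 bp from the nearest exon. The second mmu-mir-2134-4 gene (ENSMUSG00000088609.1) lies outside any other gene, 42610 bp from Chrm3, its nearest coding gene.

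The Zc3h7a locus ranked at the top of every list, behind peaks on the rDNA sequence. Rank 1 is the best score that the peak caller gave in a list, over all of its peaks. The best peak ranked 20 and 8 in wild type libraries 1 and 2, 17 and 13 in the premalignant pair, and 16 and 11 in the malignant pair, a mean of 14.2 ± 4.36 (SD, n = 6). With the rDNA sequence left out it ranked 2 in wild type library 1 and 1 in each of the other 5 lists. The single peak ahead of it in wild type library 1 was on Filip1l, at rank 19. The stages overlapped in rank.

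The C230081A13Rik locus followed closely. Its best peak ranked 30 and 16 (wild type libraries 1 and 2), 28 and 14 (premalignant) and 25 and 13 (malignant), a mean of 21 ± 7.54 (SD, n = 6). Outside the rDNA sequence the ranks were 3, 3, 3, 2, 4 and 2 in the same order. In each stage library 2 gave the better rank at either locus. The next locus outside rDNA by mean rank, at chr5:152536102-152538280 with no annotated gene, had ranks of 40, 20, 39, 17, 34 and 20 and a mean of 28.3. It lay just outside the chosen members, and it ranked below both of them in all 6 lists. The locus after it, on Filip1l with a mean rank of 34.5, ranked ahead of the C230081A13Rik locus in 3 lists, at 19 against 30 in wild type library 1, 21 against 28 in premalignant library 1 and 17 against 25 in malignant library 1. In wild type library 2 and malignant library 1 a further peak outside rDNA, not named here, also ranked ahead of the C230081A13Rik locus. None of the 6 loci that followed both members by mean rank aligned to the shared block.

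Scores were compared only within a list, because they are not scaled between libraries. At the Zc3h7a locus the score was 2686 and 4576 (wild type libraries 1 and 2), 3348 and 4098 (premalignant) and 6994 and 9296 (malignant). The best score of each list was on the rDNA sequence, and the Zc3h7a peak reached 30.9%, 74.4%, 47.6%, 22.6%, 51.6% and 28.5% of it in that order. The scores of the C230081A13Rik locus were 1483, 2687, 1900, 2904, 3603 and 6633, at most 43.7% of the best. The Zc3h7a peak thus scored higher in all 6 lists, by 1.81-fold and 1.70-fold (wild type), 1.76-fold and 1.41-fold (premalignant), and 1.94-fold and 1.40-fold (malignant). The stages overlapped in this ratio.

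**Figure D1:**
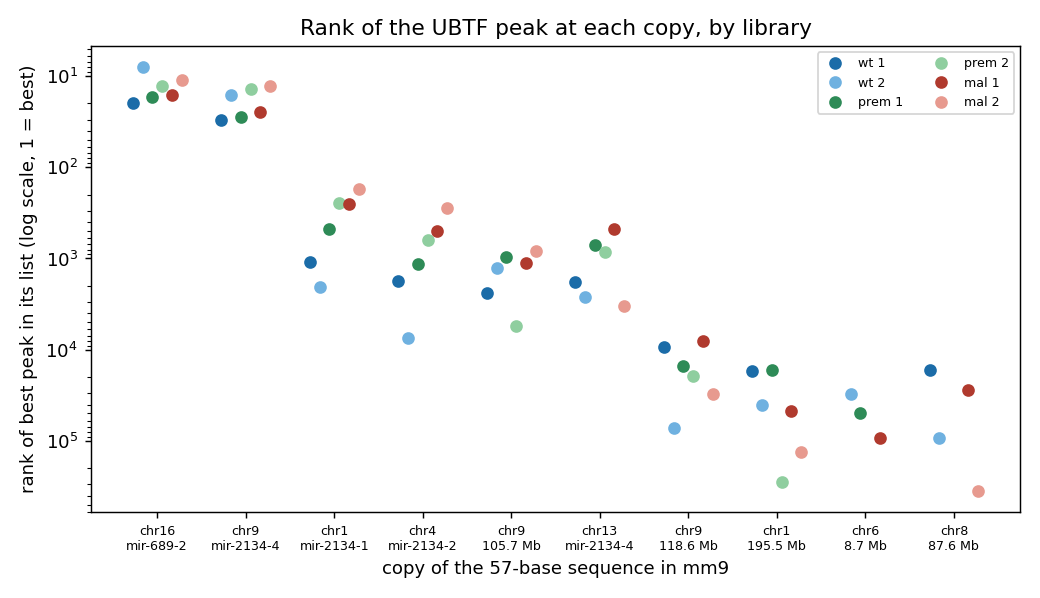
Rank of the best UBTF peak at each of the 10 copies of the 57-base sequence in mm9, on a reversed log axis (1 is the best score of a list). Each point is 1 of the 6 libraries, coloured by library, copies are ordered by median rank, and copies with fewer than 6 points had no peak in the other lists. The chromosome 16 and chromosome 9 members sit between 8 and 30, and all other copies lie at 175 or lower down.

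Summits fell on the microRNA gene or shortly before it. Measured from its first base on its own strand, the Zc3h7a summit lay at -30 and -31 in wild type libraries 1 and 2, -32 in premalignant library 1, -7 in premalignant library 2, and -3 and -20 in malignant libraries 1 and 2. All 6 were thus before the gene, inside or within 2 bases of the 30-base stretch that chromosome 9 lacks. The C230081A13Rik summit lay at -5, -10 and -17 in both wild type libraries and premalignant library 1. It lay at 45 in premalignant library 2 and at 48 and 41 in the malignant libraries, inside the 57 bases.

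The 6 lists fall into sets by the narrowest peak that they hold. It was 240, 250 and 260 bp in both wild type libraries and premalignant library 1, and 680, 800 and 670 bp in premalignant library 2 and both malignant libraries. The summit shift at either locus followed these sets and not the stages, since the premalignant libraries stood on different sides. Lists of the second set were also longer, with at least 279068 peaks against at most 184609. Whether the narrowest peak of a list and its summit positions are linked was not tested.

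**Figure D2:**
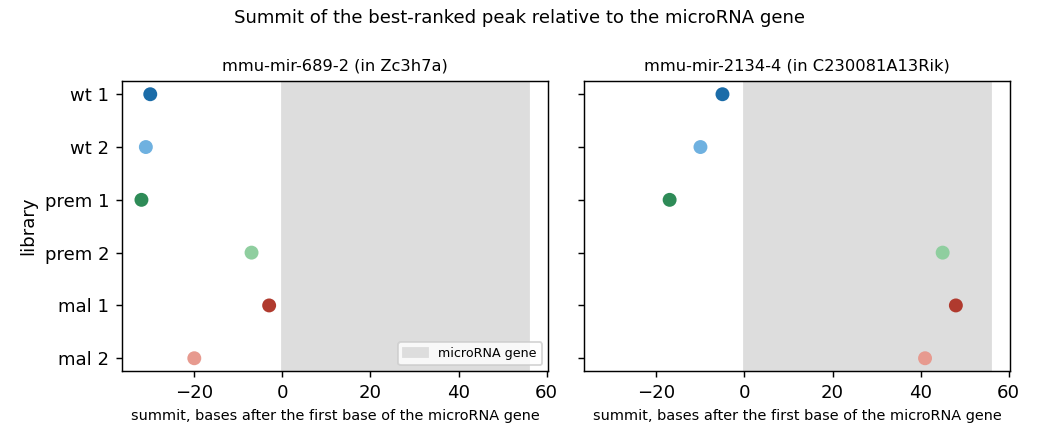
Position of the summit of the best-ranked peak in each library, in bases after the first base of the microRNA gene on its own strand (grey, the 57 bases of the gene). At the Zc3h7a locus all 6 summits lie between -32 and -3, and at the C230081A13Rik locus they lie between -17 and -5 in wild type libraries 1 and 2 and premalignant library 1 and between 41 and 48 in the other 3.

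Both peak regions were wider than the median region of their list. At Zc3h7a the merged peak region spanned 2598 and 2540 bp (wild type libraries 1 and 2), 2536 and 2399 bp (premalignant) and 2527 and 2361 bp (malignant). At C230081A13Rik it spanned 2322, 2291, 2295, 2317, 2715 and 2306 bp in the same order. The median region of a list was 1468 to 1986 bp wide. The Zc3h7a region reached past the end of the intron at position 11145272 into the next exon in all 6 lists, while its summit stayed in the intron.

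Width was not used to choose the members, so it was compared between stages by a two-sided exact permutation test of 2 libraries against 2. With this design the smallest possible p is 0.333, so no difference could pass 0.05. The Zc3h7a region measured 2569 ± 41.0 bp for wild type, 2467.5 ± 96.9 bp for premalignant and 2444 ± 117 bp for malignant cells (SD, n = 2 each). Both stages lay below wild type without overlap, with differences of -101.5 bp (premalignant, exact p = 0.333) and -125 bp (malignant, exact p = 0.333), and the malignant and premalignant values overlapped (-23.5 bp, exact p = 0.667). Adjusted over all 12 stage tests, every p was 1. Within the lists of narrow narrowest peaks the premalignant difference from wild type was -33 bp, and within the wide ones malignant minus premalignant was 45 bp, of the opposite sign. No list of malignant cells shared a set with one of wild type cells, so that difference and the set cannot be told apart.

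At C230081A13Rik the region measured 2306.5 ± 21.9 bp for wild type, 2306 ± 15.6 bp for premalignant and 2510.5 ± 289 bp for malignant cells (SD, n = 2 each). Malignant library 1 lay above the other 5 lists and malignant library 2 within their range, and the differences were 204 bp from wild type (exact p = 0.667) and 204.5 bp from premalignant (exact p = 0.667). Both differences rested on malignant library 1, and without it they were -0.5 bp and 0 bp. Premalignant minus wild type was -0.5 bp (exact p = 1).

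Peaks elsewhere in the host genes were weak. In Zc3h7a the best peak scored 165-fold to 1575-fold above the second, and 8, 8, 5, 7, 2 and 10 peaks were listed in all. In both wild type libraries and premalignant library 1 the second peak was a shoulder inside the same region, with summits at 11144568, 11144578 and 11144555 and ranks of 12889, 9843 and 5788. A peak over the start of Zc3h7a was listed in 5 of 6 lists, with premalignant library 1 as the exception, at ranks from 63006 to 253711.

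In C230081A13Rik the best peak scored 129-fold to 666-fold above the second, and the lists held 8, 7, 2, 17, 11 and 19 peaks. The second peak was not at the same place in every list. A peak at chr9:56115921-56115944 (range of the summits) was listed in 5 of 6 lists, not in premalignant library 2, with scores of 2.85 to 9.91. Peaks between chr9:56121379 and 56125291, by contrast, were listed in premalignant library 2 and both malignant libraries, the lists with wide narrowest peaks, and reached a score of 22.6 at rank 13606. A peak over the start of the gene was listed in both wild type libraries and malignant library 1 only.

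**Figure D3:**
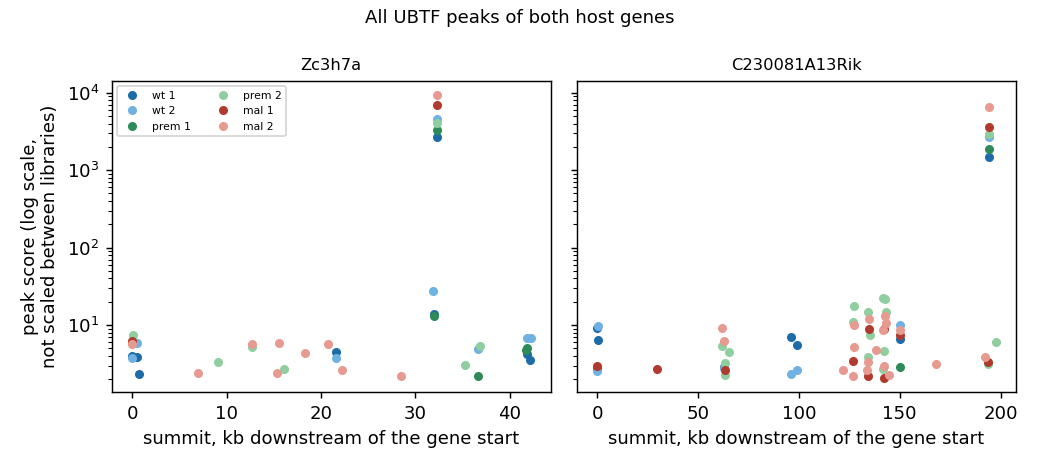
Score of every UBTF peak in Zc3h7a and C230081A13Rik (log axis, units of the peak caller, not scaled between libraries) against the distance of its summit from the start of the gene in kb, with 1 point per peak coloured by library. The peaks at the microRNA genes stand at 1483 to 9296, and all others are at 27.8 or below.

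The share of each host gene that peaks covered was highest in the lists that covered most of the genome. For Zc3h7a it was 15.2% and 13.9% (wild type libraries 1 and 2), 9.87% and 20.2% (premalignant) and 8.74% and 29.7% (malignant). For C230081A13Rik it was 5.04% and 2.90%, 1.18% and 7.27%, and 5.22% and 9.61%. Peaks covered 6.64%, 9.90%, 4.72%, 19.1%, 10.8% and 19.7% of the genome in the same lists, and premalignant library 2 and malignant library 2 were highest in all of these series.

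For Zc3h7a the stages overlapped in coverage in the lists as deposited. It came to 14.6% ± 0.910 for wild type, 15.0% ± 7.28 for premalignant and 19.2% ± 14.9 for malignant cells (SD, n = 2 each), and all 3 differences had an exact p of 1. Premalignant minus wild type was 0.451 percentage points over all lists and -4.70 within the lists of narrow narrowest peaks, and malignant minus premalignant was 4.22 over all lists and -0.928 within the wide ones. With all lists shortened to the length of the shortest, both stages of Zc3h7a lay below wild type without overlap, by -6.30 (premalignant, exact p = 0.333) and -6.92 (malignant, exact p = 0.333). In C230081A13Rik it was 3.97% ± 1.51, 4.22% ± 4.31 and 7.42% ± 3.10. Malignant minus wild type was 3.45 percentage points without overlap (exact p = 0.333, adjusted p = 1), malignant minus premalignant was 3.20 (exact p = 0.667) and premalignant minus wild type 0.255 (exact p = 1). Between lists of 1 set the differences were -2.79 (premalignant minus wild type) and 0.152 (malignant minus premalignant). With the lists shortened in the same way, malignant minus wild type was 0.481 for C230081A13Rik (exact p = 1).

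The annotation holds 5 genes of this family, and each of them was overlapped by a peak in each of the 6 lists. Among all 1577 annotated microRNA genes the share overlapped was 8.62% and 13.5% (wild type libraries 1 and 2), 5.07% and 17.9% (premalignant) and 12.7% and 20.2% (malignant). The share overlapped in all 6 lists was 2.66%, or 42 genes, of which the family makes up 5. The family genes share sequence and are not independent. mmu-mir-689-2 and mmu-mir-2134-4 on chromosome 9 were chosen by their peaks, and the choice did not use the peaks of the 3 other genes. Among these, mmu-mir-2134-4 on chromosome 13 counts as a member by its name only. The group of microRNA genes with neighbouring numbers, whose range is given with the processing, held no other gene named in the mmu-mir form. The annotation also uses names of the form Mir with a number, and whether any of those falls in the range was not tested.

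The 3 other annotated copies ranked far below both members. mmu-mir-2134-1 ranked 1105 and 2059 (wild type libraries 1 and 2), 470 and 246 (premalignant) and 255 and 175 (malignant), with scores from 64.9 to 162. mmu-mir-2134-2, whose 57 bases are the same as those of both members, ranked 1760, 7516, 1137, 623, 494 and 277 in that order, with scores from 34.1 to 99.0. The Zc3h7a peak scored 51.2-fold to 134-fold above it and 38.4-fold to 79.9-fold above mmu-mir-2134-1. The same 57 bases thus stood under peaks of very different score.

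The chromosome 13 copy of mmu-mir-2134-4 ranked 1824 and 2641 (wild type libraries 1 and 2), 707 and 839 (premalignant) and 475 and 3292 (malignant). Its scores were between 28.8 and 73.5, and the Zc3h7a peak scored 52.2-fold to 323-fold above it. Its summit lay 99 to 102 bases after the first base of the gene in 5 lists. In malignant library 2 the best peak that overlapped the gene had its summit 903 bases away, and the peak with its summit nearer to the gene ranked 18467 with a score of 18.8. Peak regions were broad here, since the line of the best peak was 2236 to 12305 bp wide and the regions of 2 to 19 peaks, many with summits farther away, reached to within 1 kb of the gene.

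Likeness to the Zc3h7a locus extended over different lengths. Apart from gaps, 97.7% of aligned bases were the same over 310 columns at mmu-mir-2134-1, 98.7% over 228 columns at mmu-mir-2134-4 on chromosome 13, and 95.3% over 361 columns at mmu-mir-2134-2. The C230081A13Rik locus had 99.7% over 409 columns, the longest match of the 9 and, apart from gaps, the closest. With its 30 gap bases counted the identity was 92.4%. By that measure the closest was mmu-mir-2134-4 on chromosome 13 with 98.2%. No order was read from these values, because 9 copies of 1 source sequence are few.

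BLASTN found 10 copies of the 57 bases in mm9, at least 40 bases long. Of these, 5 carry no mir-689 or mir-2134 annotation and are called unannotated here. The copy in Col6a6 printed above had a peak in all 6 lists, at ranks from 828 to 5491. A copy in Itga9 (chr9:118584214-118584270) had one in all 6 lists at ranks from 8040 to 72689, and a copy between genes (chr1:195458917-195458964) at ranks from 16554 to 281123. The copy over Zfp791 (chr8:87635911-87635965) had a peak in 4 lists and the copy in Ica1 (chr6:8678962-8679006) in 3. The copy over Zfp791 also lies in an exon of AC163703.1, and whether that is a microRNA gene was not tested. The mean rank was 25894 for the copy in Itga9 and 88752 for the copy between genes on chromosome 1, far below the 2012 of the copy in Col6a6.

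The family also stands early when the 42 microRNA genes with a peak in all 6 lists are ordered by mean rank. mmu-mir-689-2 and mmu-mir-2134-4 on chromosome 9 were followed by AL672099.1 in Hs6st2 with a mean rank of 321, mmu-mir-2134-1 with 718, AC113316.1 in Cdk8 with 855, mmu-mir-2134-4 on chromosome 13 with 1630 and mmu-mir-2134-2 with 1968. AL807811.1 stands beside mmu-mir-2134-2 at chr4:138894121-138894180 and shares its peak. AC166252.1 had a mean rank of 2475 and AC090489.1 in Ankrd52 of 2827. The median of the mean ranks of all 42 genes was 33014. All 5 family genes thus lie among the first 7 of the 42. The places of mmu-mir-689-2 and mmu-mir-2134-4 on chromosome 9 were set by the choice of members, which used these ranks. mmu-mir-2134-2 has the same mean rank as AL807811.1, which is outside the family.

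**Figure D4:**
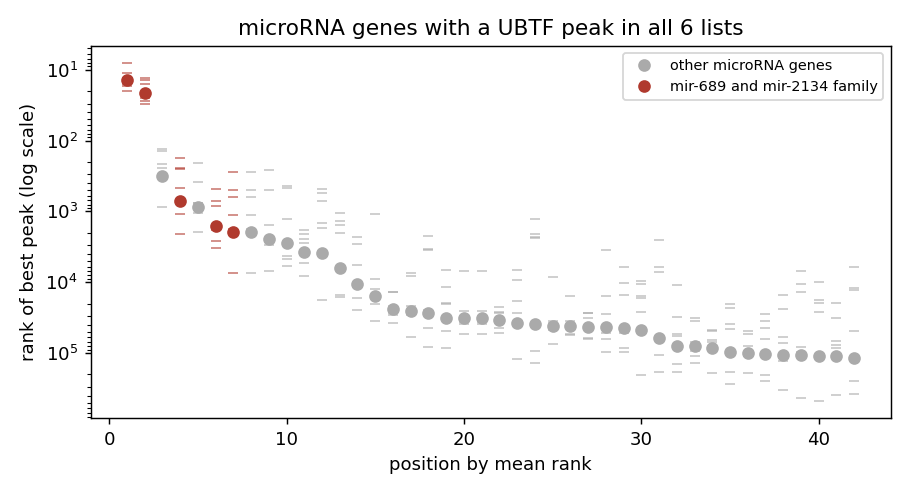
Rank of the best UBTF peak (reversed log axis) at the 42 microRNA genes with a peak in all 6 lists, ordered by mean rank on the horizontal axis. Dots are means over the 6 lists, dashes are single lists, and the mir-689 and mir-2134 family is red: it holds positions 1, 2, 4, 6 and 7. Positions 1 and 2 were set by the choice of members.

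The sequence at both members was repeated in the genome at a low copy number. Of the 24-base words within the 57 bases, the median occurred 4 times in mm9 on either strand, and all occurred 3 to 5 times, without counting the rDNA sequence that the authors added to their reference. Over the shared block the median was 4 on chromosome 16 and 5 on chromosome 9, with at most 8. Outside the block the median word was unique, although the flanks held short stretches of words with up to 1885435 occurrences. The flanks of the chromosome 13 copy differed, with a median of 9742 occurrences.

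GC content was highest close to the microRNA gene. The highest window of 50 bp held 86% on chromosome 16, where it lay before the gene, and 82% on chromosome 9, where it overlapped the first part of the gene, against 51.0% and 45.4% over the surrounding 2 kb. The shared block as a whole held 67.0% and 64.6%. Peak lists hold no reads, and how many reads under these peaks also align to rDNA was not tested.

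**Figure D5:**
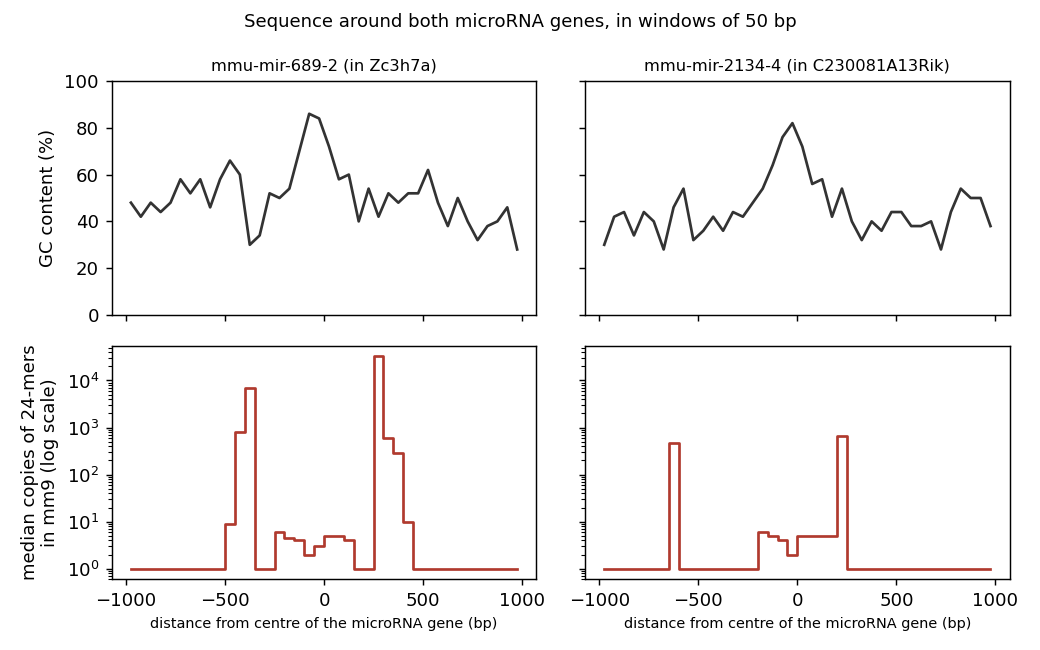
GC content (top) and median number of occurrences of 24-base words in mm9 (bottom, log axis) in windows of 50 bp against the distance from the centre of the microRNA gene on its own strand, for both members. GC content rises to 86% before the gene on chromosome 16 and to 82% over its start on chromosome 9, words in the shared block occur a few times each, and most of the flanks are unique.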

How the data were processed

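UBTF ChIP-seq peaks of 6 libraries were used. The 3 input samples were not analysed here. By the methods of the study, the authors aligned paired reads with bowtie2 to mm9 joined to 1 copy of the rDNA repeat, removed duplicates with Picard (CASAVA 1.8.2, Bowtie and Picard 1.110 in the submitters' processing notes), and called peaks per library with SPP. The reproducibility filter that the authors ran later was not applied to these lists. Each deposited line is 1 summit with its region, a score in the caller's own units and a false discovery rate (a q-value on a linear scale, up to 0.0496). The third value column, meant for a p-value, holds a placeholder. The lists give no read counts, so depth is unknown.

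Here, ranks of the score were taken over all lines of a list. Overlap meant at least 1 bp, and gene bodies came from GENCODE M1 on NCBIM37, the build of the lists. Copies were found with BLASTN (BLAST+ 2.17.0, E-value of at most 0.001, at least 40 aligned bases), and loci were aligned with Biopython 1.88. Sequences came from NCBIM37. Of 1005 symbols in the RefSeq microRNA table, 0 matched the family. Python 3.11.15, scipy 1.17.1 and samtools 1.23.1 were used. Stages were compared by exact permutation tests, with Benjamini-Hochberg adjustment over 12 tests, and the code was tested on simulated data. The results text of the study gives individual animals as the replicates of the sorted cells. Its ChIP-seq methods speak only of biological replicate experiments.

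The members and lists were chosen with earlier results of these data known. Named are the 4 members, every annotated family copy, the mir-2132 to mir-2146 group, the 5 other microRNA genes with the best mean rank, any rRNA gene the loci align to, and the next locus outside rDNA. Filip1l (the fourth locus by mean rank), the unannotated copies with their host genes and the sites at 56115921 and 56121379 were chosen after their values were seen. Alternatives were another rank base, a false discovery rate of at most 0.01, lists shortened to 78113 lines, summits within 1 kb, leaving out each library, and a replicate block.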

Additional observations from a re-analysis of the deposited data

How the results depend on the processing

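Of 162 alternatives, 17 reversed a difference, 12 moved a value, and 1 left a difference of 0 (C230081A13Rik width, malignant minus premalignant, without malignant library 1). Mean ranks outside the rDNA sequence were 1.17 for Zc3h7a with mmu-mir-689-2 and 2.83 for C230081A13Rik with mmu-mir-2134-4, and over merged regions 3 and 4.67. Peaks with a false discovery rate of at most 0.01 reversed premalignant minus wild type coverage of Zc3h7a to -0.403. Lists shortened to 78113 peaks gave -6.30 for the same difference, -0.617 for malignant minus premalignant and -6.92 for malignant minus wild type, and -0.287 for premalignant minus wild type in C230081A13Rik. They also held peaks at 110, 64, 71 and 86 microRNA genes in wild type 2, premalignant 2, malignant 1 and malignant 2, against 213, 283, 201 and 319. Here fewer peaks per list are the alternative itself. The family count stayed at 5 in every alternative run. Leaving out a library could not change it, because all 5 genes had a peak in each list.

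Without 1 library, the Zc3h7a width difference was -170 to -33 bp (premalignant minus wild type), -106.5 to 59.5 bp (malignant minus premalignant, above 0 without premalignant 1 or malignant 2) and -208 to -42 bp (malignant minus wild type). For C230081A13Rik these were -16 to 15, 0 to 409 and -0.5 to 408.5 bp. Coverage differences were -4.70 to 5.60, -6.28 to 14.7 and -5.83 to 15.2 percentage points in Zc3h7a and -2.79 to 3.30, 0.152 to 6.24 and 1.26 to 5.65 in C230081A13Rik. Mean ranks were 13 to 15.4 for Zc3h7a, 19.2 to 22.6 for C230081A13Rik and 1297 to 1861 for mmu-mir-2134-4 on chromosome 13.

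With a replicate block the differences keep their values by construction (for example -101.5 bp for Zc3h7a) and the smallest possible p is 0.5. Whether libraries of the same number are paired is not known. Across the 42 microRNA genes the deviations of log ranks correlated at -0.19 (wild type with premalignant), 0.06 (wild type with malignant) and 0.26 (premalignant with malignant). A correlation across genes leaves out any shift common to a library, so it cannot exclude pairing. In each stage library 2 held more peaks than library 1 and gave the better rank at either locus. Depth is unknown, and 2 libraries a stage allow no p under 0.333.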
